A study of Mus musculus with 4 samples.

Results

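The lysosomal proteases and membrane proteins described here are 9 genes of the macrophage lysosome, namely the protease genes Ctsb, Ctsl, Ctss and Lgmn and the membrane protein genes Cd63, Cd68, Lamp1, Lamp2 and Gpnmb. Their sites were taken as those whose gene cell in the site table of either mouse equals 1 of these symbols. This gave 50 sites in mouse 1, whose table lists 45668, and 51 in mouse 2, whose table lists 47747. The 9 genes are among 8800 with a site listed in either mouse. The sites are positions called by m6A-eCLIP, a method to map N6-methyladenosine (m6A). In it, RNA fragments bound by an antibody to m6A are sequenced and a site is placed where reads start. The cells were wild-type bone marrow-derived macrophages from 2 mice, and every culture had received lipopolysaccharide (LPS) for 3 h, so resting cells could not be compared. From the poly(A)-selected RNA of each mouse 1 library was made after immunoprecipitation (IP) and 1 from the input, 4 libraries in all. Strain, age and sex of the mice and the culture conditions were not given in the sources used here. Nor do the labels explain the term NTC in the table names.

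Lysosomes are acidic compartments in which macrophages digest what they engulf. Cathepsins are made as inactive precursors, are cut into their active form at low pH, and degrade proteins and antigens, while legumain cuts after asparagine and processes cathepsins. Heavily glycosylated membrane proteins such as Lamp1 and Lamp2 line the inner face of the lysosomal membrane. The mark m6A is deposited inside messenger RNA mostly at an adenosine followed by cytosine and preceded by a purine, often near the stop codon and in the 3' UTR. A related mark, m6Am, stands at the first transcribed adenosine of many messages, and antibodies to m6A can bind it as well. The tables do not say which of the marks a site carries.

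Fold and score are values the authors gave to each site. The fold divides the read starts of a mouse's IP by those of its input, and a site was called enriched where it was at least 8 (a log2 fold of 3). The tables give no read numbers, so depth is unknown and no error can be attached to the fold of a single site. The fold is relative to the input of the same mouse and does not give the share of transcripts that carry the mark. The part of transcript abundance in which sites are listed was not tested. The replicates are the 2 mice, and means of log2 folds are given with their SD over both. No site table is a measure of expression. All 8 macrophage marker genes examined had called sites in both mice, while none of 6 lymphocyte or 6 stromal and endothelial markers had any. Of 5 dendritic cell markers 1 had a called site in a single mouse, and 4 of 7 neutrophil markers had called sites in both, whose part in the results was not tested.

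The lysosomal genes had called sites in both animals at most positions, but a smaller share of these sites was enriched than over the whole tables. In mouse 1, 27 of 50 called sites were enriched, or 54.0% (exact 95% interval 39.3% to 68.2%), beside 81.7% of all called sites. In mouse 2, 32 of 51 were enriched, or 62.7% (48.1% to 75.9%), beside 79.1% of all called sites. The intervals cover counting error only, and sites of 1 transcript share their source, so no test was formed. Of the called sites, 46 were called at the same nucleotide and strand in both mice, which is 92.0% of those of mouse 1 and 90.2% of those of mouse 2, beside 83.4% and 79.8% of all called sites. Of these 46 sites, 26 were enriched in both mice (56.5%, 41.1% to 71.1%), beside 76.9% of all sites called in both. A further 15 were enriched in neither mouse (32.6%, 19.5% to 48.0%), beside 7.99% of all sites called in both. The remaining sites were enriched in 1 mouse only, 1 in mouse 1 alone and 4 in mouse 2 alone.

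**Figure D1:**
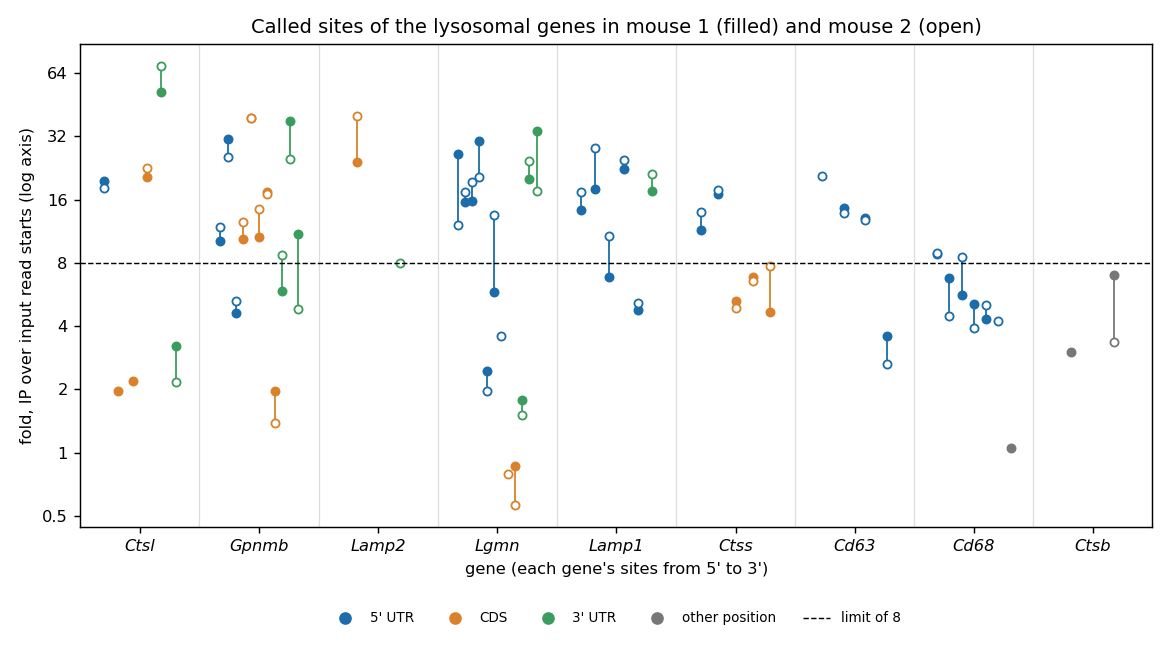
Fold of IP over input read starts (log axis) at every called site of the 9 genes, ordered by the strongest shared site. Each point is a site in mouse 1 (filled) or mouse 2 (open), a line joins the mice, colours give the annotated position and the dashed line marks a fold of 8. Ctsl holds the highest pair (51.8 and 69.3), and no site of Ctsb reaches the line.

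By gene, 8 of the 9 carried a site enriched in both mice, beside 86.9% of the 7827 genes called in both animals, so the share of genes was near the background. Ctsb was the exception. Gpnmb carried 7 such sites, Lgmn 6, Lamp1 4, Ctsl 3, Ctss and Cd63 2 each, and Cd68 and Lamp2 1 each. The 2 genes with most called sites, Gpnmb (11 in each mouse) and Lgmn (10 and 12), had more called sites than 87.3% of these 7827 genes, whereas Ctsb and Lamp2 had more than 11.2%.

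Among the proteases, Ctsl had the strongest site. Ctsl encodes cathepsin L, a cysteine endopeptidase, and lies on the minus strand of chromosome 13 (64361890 to 64370772, RefSeq, GRCm38.p6). Its 3' UTR site at position 64364079 had folds of 51.8 and 69.3 (here and below mouse 1 comes first and mouse 2 follows), a mean log2 fold of 5.91 ± 0.30 (SD, n = 2). That value exceeded the strongest shared site of 83.3% of the 7608 genes with a site called in both mice, and the folds of Ctsl did not overlap with those of any other member. A coding site 55 bases upstream, at 64364134, had folds of 20.5 and 22.7, and the single 5' UTR site, at 64370306, had folds of 19.7 and 18.2. The mice differed by 1.34-fold at the 3' UTR site and by at most 1.11-fold at the other pair. Another 3' UTR site, at 64364042, was called in both mice with folds of only 3.23 and 2.18. In mouse 1 alone, 2 adjacent coding nucleotides at 64365225 and 64365226 were called with folds of 2.20 and 1.96.

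Ctss encodes cathepsin S, the protease that trims the invariant chain of MHC class II molecules, and lies on the plus strand of chromosome 3 (95526786 to 95556405). Both of its enriched sites lay in the 5' UTR, 6 bases apart. The site at 95526837 had folds of 17.1 and 17.9 (mean log2 fold 4.13 ± 0.04, SD, n = 2), and that at 95526831 had folds of 11.5 and 13.9. The former also carried the highest score of any member site in each mouse, 82.5 and 89.6. The 3 coding sites of Ctss were called in both mice and stayed below the limit. Their folds were 5.29 and 4.87 at 95526903, 6.87 and 6.53 at 95529496, and 4.67 and 7.76 at 95529508.

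Lgmn encodes legumain and lies on the minus strand of chromosome 12 (102394082 to 102439728). Its enriched sites fell at both ends of the gene. At the 5' end, 4 sites were enriched in both mice, at 102439724 (30.4 and 20.4), 102439727 (15.7 and 19.4), 102439728 (15.7 and 17.4) and 102439751 (26.3 and 12.2). The site at 102439728 is the first base of the RefSeq gene, and that at 102439751 lies 23 bases upstream of it. At the other end, 3' UTR sites at 102394375 and 102394514 had folds of 34.1 and 17.6, and of 20.2 and 24.5. Mouse 1 was the higher at 3 of these 6 sites and mouse 2 at the other 3, and they differed by up to 2.17-fold.

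Lgmn also held the sites with the lowest folds. The coding site at 102423599 had folds of 0.865 and 0.564, so fewer read starts lay in the IP than in the input after scaling, and yet it was listed with scores of 25.4 and 12.2. At 102439672, the mice lay on opposite sides of the limit (5.83 and 13.6). The adjacent base, 102439673, had folds of 2.44 and 1.97 with scores of 65.4 and 74.0, close to the highest scores of the gene (70.8 and 86.6). Score and fold therefore ordered these sites differently.

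The sequences around the sites nearest to a RefSeq start are shown because 5' UTR sites make up most of the enriched sites of these genes. RefSeq windows that run from 250 bases before to 50 bases after a listed start were matched by symbol for 8 of the 9 genes, and 7 member sites called in both mice fell inside such a window, in Lgmn, Cd68 and Ctss. They are printed from 5' to 3' on the transcript strand, with the called base in capitals.
Lgmn, chr12:102439711-102439740, minus strand: ttgccgcagctcAAtcAcagcggggcggac
Lgmn, chr12:102439741-102439761, minus strand: gcccgggctcAgcgatctgtg
Cd68, chr11:69666133-69666153, minus strand: gaggcttttcAtttcctcttc
Cd68, chr11:69666121-69666131, minus strand: aagagaaggcA
Ctss, chr3:95526821-95526835, plus strand: atttctttttAgagt
The called base was A at 7 of 7 member sites, as it was at all 3605 sites of any gene that were called in both mice and lay in such a window. An A was thus not particular to the members, and the Cd68 site at 69666121 was enriched in neither mouse (6.78 and 4.49). Of the 6 member sites with both neighbours inside the window, 5 had C or T before the A, beside 83.2% of 3563 such sites of all genes and 45.8% of all A in the windows. GAC or AAC with the A as the called base was found at none of the 6, beside 2.44% of the sites of all genes and 10.6% of all A in the windows. Only the transcript strand was searched at the sites, and 99.7% of all windows hold GAC or AAC somewhere on that strand. The letters of the coding and 3' UTR sites were not read, because no genome sequence was used.

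Ctsb, which encodes cathepsin B, lies on the plus strand of chromosome 14 (63122462 to 63145923) and was the only member without an enriched site in either mouse. Its sole site called in both mice was annotated as intronic, at 63132497, with folds of 7.02 and 3.37 and scores of 10.7 and 13.6. Every listed site of either table scored above 10. A second intronic site, at 63130910, was called in mouse 1 alone with a fold of 3.01. No site of Ctsb was called in its coding sequence or UTRs. A site below the score limit of the tables is not listed, so such sites are not shown to be absent.

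Of the membrane proteins, Gpnmb carried the most enriched sites. Gpnmb and Ctsl were the members with sites enriched in both mice at all of the 5' UTR, the coding sequence and the 3' UTR. Gpnmb encodes a glycoprotein of melanosomes and phagocyte lysosomes and lies on the plus strand of chromosome 6 (49036518 to 49058182). Its strongest site, in coding sequence at 49047886, had folds of 39.2 and 39.0 (mean log2 fold 5.29 ± 0.005, SD, n = 2). That site was the highest of 4 enriched coding sites within 122 bases, the others having folds of 10.3 and 12.5, 10.7 and 14.4, and 17.4 and 16.96. In the 5' UTR, sites at 49036620 (31.2 and 25.5) and 49036615 (10.2 and 11.9) were enriched in both mice. In the 3' UTR, the site at 49056864 had folds of 38.1 and 25.0. Mouse 2 alone passed the limit at 49056392 (5.85 and 8.74), and mouse 1 alone at 49070156 (11.03 and 4.81). The last of these sites was annotated by the authors as Gpnmb 3' UTR but lies 11974 bases beyond the RefSeq end of the gene.

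Lamp1 and Lamp2 encode the major structural glycoproteins of the lysosomal membrane, and Lamp2 also serves chaperone-mediated autophagy. They differed in where their sites lay. Lamp1 lies on the plus strand of chromosome 8 (13159161 to 13175338) and had 5 called 5' UTR sites within 55 bases and 1 site in the 3' UTR. Of the former, 3 were enriched in both mice, with folds of 22.5 and 24.6 at 13159272, 18.1 and 28.2 at 13159249, and 14.3 and 17.4 at 13159242. The 3' UTR site at 13175017 had folds of 17.5 and 21.1. At all 6 sites of Lamp1 mouse 2 had the higher fold, by at most 1.57-fold, and at 13159256 it alone passed the limit (6.83 and 10.7). Lamp2, on the minus strand of the X chromosome (38399647 to 38456460), had 1 coding site at 38421720 with folds of 24.3 and 40.1 and no called 5' UTR site. In mouse 2 alone a 3' UTR site of Lamp2 at 38419969 was called, with a fold of 8.02 and a score of 10.8.

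Cd63 encodes a tetraspanin of late endosomes, lysosomes and exosomes, and Cd68 a macrophage glycoprotein related to the Lamp proteins. All sites of Cd63, on the plus strand of chromosome 10 (128896231 to 128912822), and all but 1 of those of Cd68, on the minus strand of chromosome 11 (69664213 to 69666170), lay in the 5' UTR. Cd63 had enriched sites at 128909906 (14.6 and 13.8) and 128909927 (13.1 and 12.8), 21 bases apart, and the mice differed there by at most 1.06-fold. A site at 128909930, only 3 bases further on, had folds of 3.58 and 2.64. At 128909879 a site with a fold of 20.7 and a score of 45.5 was called in mouse 2, and no site was listed there in mouse 1. Cd68 had 1 enriched site, at 69666143, close to the limit in both mice (8.83 and 8.89). Its other 4 shared sites lay 49 to 69 bases from the RefSeq start and had folds between 3.94 and 8.50, of which only that of mouse 2 at 69666114 passed the limit. A site at the end of a Cd68 intron was called in mouse 1 alone with a fold of 1.05.

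Ordered by mean log2 fold of the strongest shared enriched site, the genes were Ctsl (5.91), Gpnmb (5.29), Lamp2 (4.97), Lgmn (4.64), Lamp1 (4.56), Ctss (4.13), Cd63 (3.83) and Cd68 (3.15). The folds of Gpnmb and Lamp2, of Lamp2 and Lgmn, and of Lgmn and Lamp1 overlapped between the mice, so these neighbours did not differ beyond their spread. The folds of the other 4 pairs of neighbours did not overlap. Over the 8 genes the median was 4.60, beside 4.81 over the 6798 genes with a site enriched in both mice. Cd68 exceeded the strongest shared site of 7.89% of genes and Ctsb that of 1.66%.

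Sites of the lysosomal genes lay more often in the 5' UTR than sites over the whole tables. The 5' UTR held 25 of 50 called sites in mouse 1, or 50.0% (35.5% to 64.5%), and 28 of 51 in mouse 2, or 54.9% (40.3% to 68.9%), beside 19.0% and 18.7% of all called sites. Of the 26 sites enriched in both mice, 15 lay in the 5' UTR (57.7%, 36.9% to 76.6%), 6 in coding regions and 5 in 3' UTRs, beside 13.6%, 42.4% and 37.3% of all such sites. A 5' UTR site was enriched in both mice in 7 of the 9 genes, all but Ctsb and Lamp2, beside 33.3% of the 7827 genes. A coding or 3' UTR site was enriched in both mice in 5 genes, Ctsl, Lgmn, Lamp1, Lamp2 and Gpnmb, beside 70.0% of those genes.

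**Figure D2:**
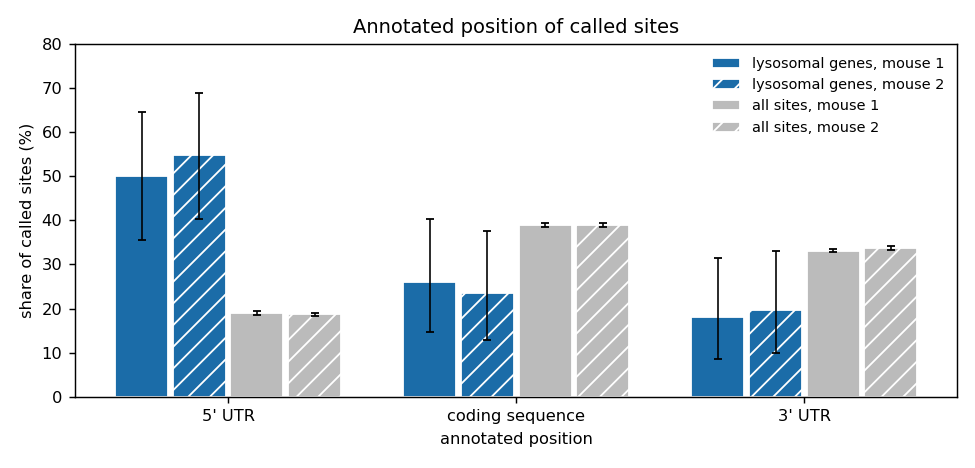
Share of called sites (%) in the 5' UTR, the coding sequence and the 3' UTR, for the 9 lysosomal genes (blue) and all sites (grey) in mouse 1 (plain) and mouse 2 (hatched), with exact 95% intervals. The 5' UTR holds 50.0% and 54.9% of the sites of the lysosomal genes and 19.0% and 18.7% of all sites.

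Within the 5' UTR, sites of these genes were enriched about as often as other 5' UTR sites, at 60.0% (15 of 25) in mouse 1 beside 64.7%, and 67.9% (19 of 28) in mouse 2 beside 61.9%. Sites of the 5' UTR, where the members have more of their sites, were thus enriched less often than other sites over the whole tables too. Outside the 5' UTR the members' shares lay below those of all sites. Enriched coding sites numbered 6 of 13 in mouse 1 and 6 of 12 in mouse 2, or 46.2% and 50.0%, beside 87.7% and 84.7% of all coding sites. Of the 3' UTR sites 6 of 9 and 7 of 10 were enriched, or 66.7% and 70.0%, beside 87.7% and 85.7%. The intervals of the 3' UTR shares, 29.9% to 92.5% and 34.8% to 93.3%, contain those background values. The intervals of the coding shares, 19.2% to 74.9% and 21.1% to 78.9%, do not contain theirs. However, 4 of the 6 enriched coding sites lie within 122 bases of Gpnmb. Sites of 1 transcript share their source, so neither comparison is a test.

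**Figure D3:**
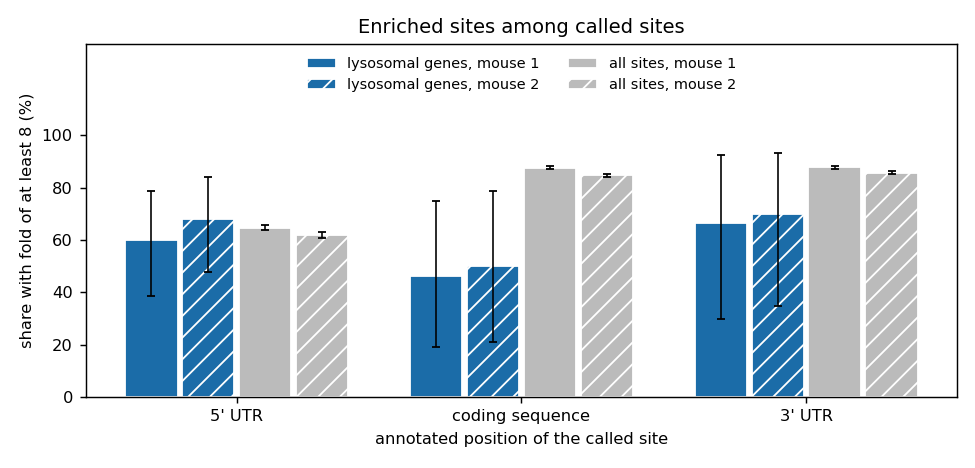
Share of called sites with a fold of at least 8 (%), by annotated position, for the 9 lysosomal genes (blue) and all sites (grey) in mouse 1 (plain) and mouse 2 (hatched), with exact 95% intervals. In coding sequence the lysosomal genes stand at 46.2% and 50.0% and all sites at 87.7% and 84.7%, while the 5' UTR shares lie close together.

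The 5' UTR sites called in either mouse covered 6 bases in Ctss, 35 in Gpnmb, 51 in Cd63, 55 in Lamp1, 72 in Cd68 and 108 in Lgmn, and Ctsl had a single one. Measured from the nearest listed RefSeq start, they lay 45 and 51 bases downstream in Ctss, 27 to 99 in Cd68, 81 to 136 in Lamp1, 97 to 132 in Gpnmb, 214 in Ctsl and 534 to 585 in Cd63. In Gpnmb, Lamp1 and Cd63 the site furthest downstream had a fold below the limit in both mice. The site nearest to the start was the highest in Cd68, while in Ctss, Gpnmb and Lamp1 a site further downstream was higher in both mice.

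**Figure D4:**
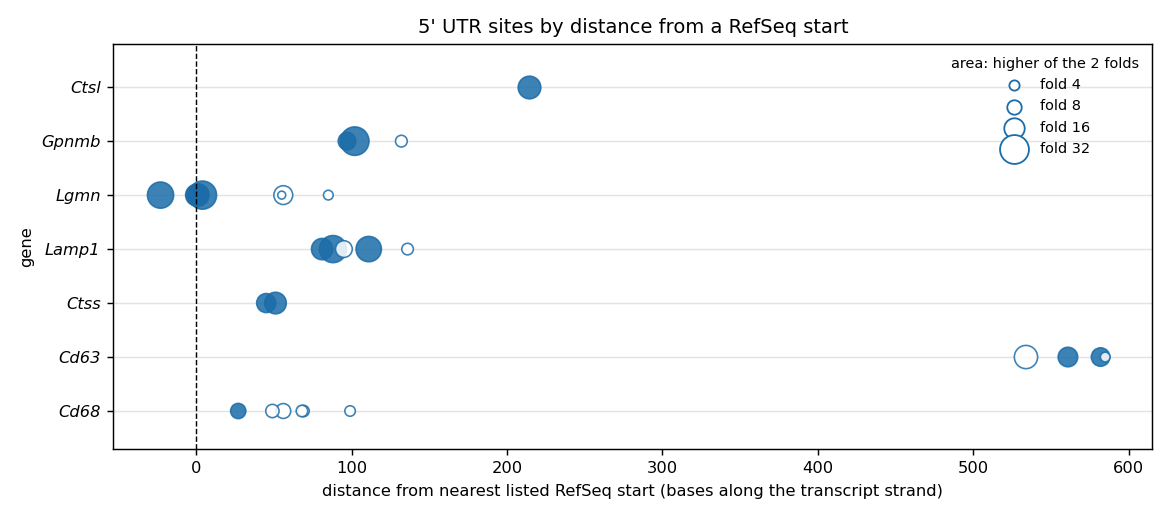
Distance of each called 5' UTR site from the nearest listed RefSeq start, in bases along the transcript, for the 7 genes with such sites. The area of a circle follows the higher of the folds of both mice, and filled circles are sites enriched in both. Sites of Lgmn span -23 to 85 bases, and those of Cd63 lie 534 to 585 bases from the listed start.

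The values of both animals lay closer together in the lysosomal genes than over all sites. The median absolute difference of the log2 folds was 0.30 over the 46 sites called in both mice, beside 0.56 over all sites called in both, and mouse 1 was the higher at 22 sites and mouse 2 at 24. Their scores were also higher, with medians of 36.3 and 35.9 beside 31.4 and 31.9 over all called sites. A further measure moved with these values. After division by the constant of its table (1.003 in mouse 1 and 0.963 in mouse 2), the fold was a whole number at 5 of 50 sites of the lysosomal genes in mouse 1 and 3 of 51 in mouse 2, beside 62.1% and 62.0% of all sites. In mouse 1 these were both sites of Ctsb, the Gpnmb sites at 49056864 and 49070156 and the Lgmn site at 102394375. In mouse 2 they were the strongest site of Ctsl, at 64364079, and the same sites of Gpnmb. A ratio is whole whenever the input holds a single read start. The part of input read number in the lower folds, the closer values and the order of the genes was not tested.

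Other genes of the lysosome and genes related to them served as a comparison, from lists written out by symbol, with the same 86.9% of genes as background. Not every listed gene encodes a lysosomal protein, since the inhibitor list, for example, also covers the cytosol. Of 15 further lysosomal peptidases, 11 had called sites in both mice and 10 a site enriched in both. The highest were the 3' UTR of Ctso, a cathepsin (117 and 57.3), the coding sequence of Ctsa, the carboxypeptidase that protects neuraminidase (59.7 and 86.5), and the 3' UTR of Scpep1, a serine carboxypeptidase (48.1 and 61.1). Napsa, an aspartic peptidase, had called sites and none enriched in both. Of 10 protease inhibitors 4 had called sites in both mice and all 4 an enriched one, led by the serpins Serpinb6a (30.3 and 15.5) and Serpinb1a (15.6 and 13.5) and the cystatin Cstb (15.04 and 12.6). Their median log2 fold was 3.82, beside 5.38 for the peptidases and 4.60 for the members. The part of input read number in the folds of these and the following lists was not tested.

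Among 32 other lysosomal membrane proteins 23 had called sites in both mice and 20 an enriched one. Among the highest were the cation channel Mcoln2 (172 and 50.8) and the sialomucin Cd164 (62.7 and 81.4), while Tmem9 and Abca2 had called sites and none enriched in both. Of 18 other tetraspanins 12 had called sites in both mice and 10 an enriched one, with Tspan31 (136 and 120), Tspan4 (172 and 80.4) and Cd151 (50.1 and 65.5) highest and none enriched in both in Cd82 and Tspan3. Of 45 acid hydrolases and cofactors 40 had called sites in both mice and 35 an enriched one. The nuclease Dnase2a (150 and 195), the heparan sulfate hydrolase Naglu (131 and 221) and the glucuronidase Gusb (100.3 and 210) were highest, and Arsa and Galc had none enriched in both.

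The vacuolar ATPase is the proton pump that acidifies lysosomes. Of 19 symbols listed for its subunit and accessory genes, 15 had called sites in both mice and 13 an enriched one. Atp6v0a3, among the listed symbols without a called site, is another name of Tcirg1. Tcirg1 (41.2 and 38.4), Atp6v0a1 (22.8 and 66.8) and Atp6v0d1 (23.4 and 60.02) were highest, and Atp6v1b2 and Atp6v1e1 had none enriched in both. Of 22 regulators of lysosome biogenesis and nutrient signalling 18 had called sites in both mice and 15 an enriched one, led by the transcription factor Tfec (76.7 and 184) and the Rag GTPases Rragc (71.2 and 132) and Rraga (111 and 57.3), while Lamtor2 and Lamtor3 had none. In the vacuolar ATPase list 19 of 34 sites enriched in both mice lay in the 5' UTR, or 55.9%, near the 57.7% of the members. That share was 66.7% for protease inhibitors (6 of only 9 sites), 27.6% for tetraspanins (8 of 29) and 17.5% for peptidases (7 of 40). It was 14.9% for acid hydrolases, 12.3% for biogenesis regulators and 9.76% for other membrane proteins. Over all genes with a single name it was 13.9%. These shares are descriptions, and the differences between lists were not tested.

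**Figure D5:**
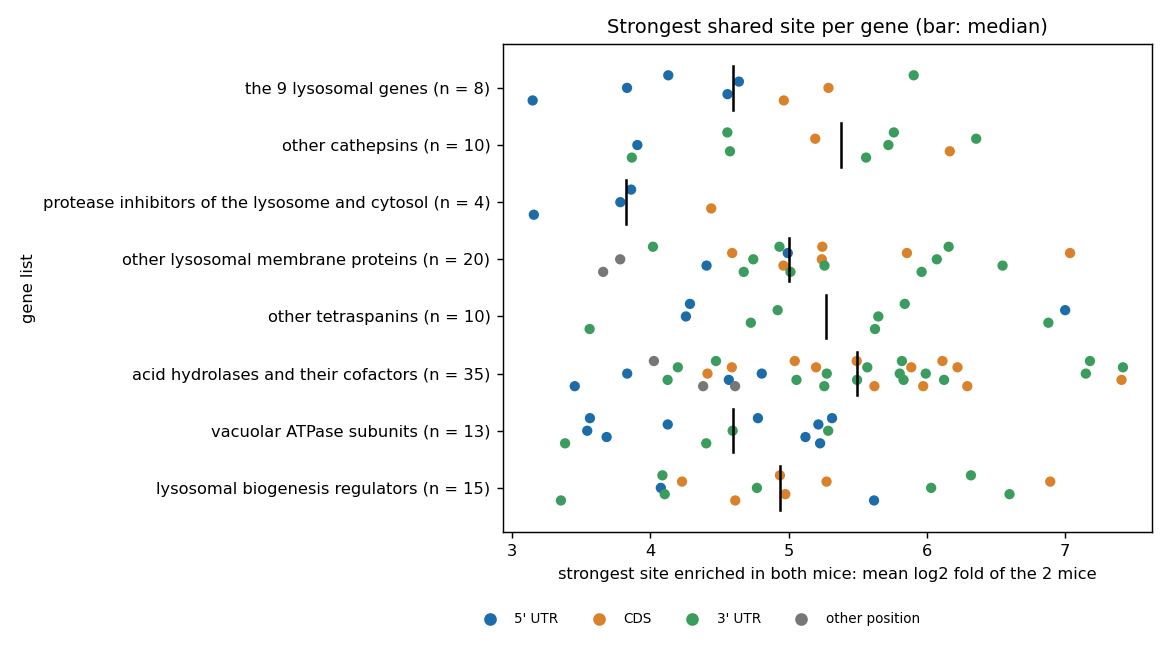
Mean log2 fold over both mice of the strongest site enriched in both, 1 point per gene with such a site, coloured by annotated position. Shown are 8 of the 9 lysosomal genes (Ctsb has no such site) and 7 lists of other lysosomal and related genes, with a bar at each median. The medians lie at 4.60 for these 8 genes, 5.38 for other cathepsins and peptidases, 5.49 for acid hydrolases and 4.59 for the vacuolar ATPase.

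The genes whose strongest shared site most resembled that of a member were found by the distance between log2 folds over the 2 mice, among genes with that site at the same annotated position. For the 3' UTR site of Ctsl they were Glrx (53.4 and 69.6, distance 0.043) and Synrg (51.1 and 71.3, distance 0.044) among 2825 genes. For the coding site of Gpnmb they were Cdc16 and Vrk2, both at a distance of 0.018, and for that of Lamp2 Nudt2 (0.067) and Slfn4 (0.10), among 2514 genes. A distance below 0.2 was reached by 30 genes for Ctsl, 55 for Gpnmb and 20 for Lamp2, so such likeness over 2 mice was not particular to the genes named.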

How the data were processed

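Called m6A-eCLIP sites of macrophages of 2 mice were used, with IP and input of each mouse from the same RNA. Per the submitters' processing notes, the builds mm10 and hg38 and the tools UMI-tools 0.5.1, STAR 2.6.0c and cutadapt 2.7 were used. Site caller, score definition and annotation were not given in the sources used here. Per the file headers, each mouse has its own deposited table with a score per site. Per the file headers, the deposited fold is a ratio of read starts. Sites were 1 base wide, and the end of each interval was taken as the 1-based position. Coordinates were read as mm10, which shares those of GRCm38.p6, and 53 of the 55 member sites lay inside the RefSeq gene of that name.

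Sites were shared at the same strand and nucleotide. Shared sites took their annotation from mouse 1. Genes with several joined names (none with a member) were left out of counts per gene. Members and lists were chosen with earlier results of these data known, so counts and medians stand beside those of all sites or genes and no set was tested. Named in the text were all members, the 3 highest genes of each list and up to 2 with called sites and none enriched in both mice, and the 2 genes most like each of the 3 highest members. A gene that this rule picks is not reported here. The overlap step and the table constants were tested on simulated data. Sequences come from RefSeq (GRCm38.p6). Intervals are exact (Clopper-Pearson) at 95%. Python 3.11.15, pandas 2.3.3, NumPy 2.4.6, SciPy 1.17.1 and Matplotlib 3.10.9 were used. Alternatives covered the fold limit, the score, the table constant, joined names, the overlap rule, each mouse and the largest members left out.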

Additional observations from a re-analysis of the deposited data

How the results depend on the processing

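The counts of enriched sites, the count of genes with a site enriched in both mice and the 5' UTR share kept within 1.5 times or within their interval under a fold limit of 4, a score of at least 20, division by the table constant, joined gene names, sharing within 5 bases, and without Lgmn or Gpnmb, which tied for the most called sites. The limit of 4 raised the enriched sites from 27 to 40 in mouse 1, 32 to 41 in mouse 2 and 26 to 38 in both, close to 1.5 times in mouse 1 and in both. A fold limit of 16 lowered the enriched sites to 16 in mouse 1, 19 in mouse 2 and 15 in both, of which 40% lay in the 5' UTR in place of 57.7%. It left 6 genes, without Cd63 and Cd68, and raised the median of their strongest sites from 4.60 to 4.80, since fewer genes entered. No share over all sites or genes was formed at a limit of 4 or 16, so these values stand without a background. With 1 mouse left out, the median of the strongest sites ran from 4.55 to 4.72 and the enriched sites from 27 to 32. Sites within 5 bases counted once, an alternative chosen after seeing the data, gave 23 sites enriched in both mice. The number of libraries, 1 IP per mouse, and the unknown depth limit every value. No paired analysis was possible because no result comes from a test and the tables give IP and input as their ratio within each mouse, which is the value used throughout.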

Other observations

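Among the listed lysosomal and related genes without a called site in either mouse were Ctsd, the major aspartic protease of the lysosome, the tetraspanin gene Cd81 and the membrane protein gene Lamp3. They were named after their values were seen. A gene without a listed site is not shown to lack the mark, since the tables give neither read numbers nor sites below their score limit. The neutrophil genes Ngp (41.8 and 33.5), S100a9 (19.0 and 30.1) and Camp (24.1 and 21.2) had their strongest sites in the 5' UTR, as did 5 of the 8 members with a site enriched in both mice. Ngp and Camp had only 1 called site in each mouse. Of the 7 macrophage markers with a site enriched in both mice, 2 had their strongest in the 5' UTR. Over all genes the strongest such site lay in the 5' UTR in 20.3%. Lgmn, counted among the 5, had mean log2 folds of 4.64 ± 0.41 at its 5' UTR site and 4.61 ± 0.68 at a 3' UTR site. These lay within their spread (SD, n = 2), and in each mouse taken alone a 3' UTR site of Lgmn had its highest fold.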
